A study of Homo sapiens with 20 samples.

Results

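IFI6, IFI27, IFI35, IFI44, IFI44L, NMI, EPSTI1, CMPK2 and LY6E are interferon-inducible genes outside the best known antiviral families. They were chosen by name, 9 of the 43366 genes in the count table, and none was chosen by a measured value. Earlier results of these data were known when they were chosen. All 9 were found in the table, and 8 of them passed the filter on low counts in the comparisons of treated with untreated cells, EPSTI1 being the exception. RNA was sequenced from 10 clones of the osteosarcoma cell line U2OS, 5 WT and 5 labelled as knockout (KO) for the zinc finger protein ZBTB48, each clone grown without interferon and treated for 24 h with IFNγ at 250 U/ml. This gave 4 groups of 5 libraries, namely untreated WT, untreated KO, WT with IFNγ and KO with IFNγ, and each library comes from 1 clone, the 5 clones of a group being treated by the study as biological replicates. The study used these libraries to extend its work on MHC class II genes to expression differences between the labels across the genome.

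IFNγ binds a receptor made of IFNGR1 and IFNGR2, which activates the kinases JAK1 and JAK2 and through them transcription factors. DNA elements known from promoters of interferon-stimulated genes are GAS, best known from the IFNγ response, and the interferon-stimulated response element (ISRE), best known from the type I interferon response, to which IRF1 can also bind. IFI6 and IFI27 are small membrane proteins of the same family and both have been found at mitochondria or the endoplasmic reticulum. IFI44 and its paralog IFI44L are cytoplasmic proteins encoded side by side. NMI and IFI35 bind each other through a shared type of domain. CMPK2 is a mitochondrial nucleotide kinase encoded next to the antiviral gene RSAD2, LY6E is a lipid-anchored surface protein that affects virus entry, and EPSTI1 was first described in breast epithelium grown with stromal cells.

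Total counts per library ranged from 46652288 to 72952859. Values are given as CPM, read counts relative to the library size after scaling by edgeR's TMM factors. ZBTB48 mRNA ranged from 8.03 to 11.6 CPM over the 10 WT libraries and from 1.29 to 5.27 CPM over 8 of those labelled KO, but the libraries labelled KO replicate 3 had 11.3 CPM without and 15.8 CPM with IFNγ. MTFP1, a ZBTB48 target named by the study, was at or below 0.938 CPM in all 10 libraries labelled KO, replicate 3 included, against 27.2 CPM or more in every WT library. The mRNA of the targeted gene was thus not low in replicate 3 although MTFP1 was, and mRNA does not show whether the protein is made. These libraries are therefore called libraries labelled KO. The deviations of treated and untreated libraries of a clone from their group means correlated at Pearson's r of 0.70 to 0.89 over 15115 genes in 8 clones, but at -0.02 and 0.05 in KO replicates 4 and 5, so the pairing of these 4 libraries goes against their labels. Untreated replicate 4 correlated with treated replicate 5 at 0.75 and untreated replicate 5 with treated replicate 4 at 0.83. No library was moved, and values by clone keep the labelled pairing. The U2OS lineage markers SPARC, COL1A1, VIM and RUNX2 were at 18.4 CPM or more in every library, ALPL at 0.989 to 22.5 CPM, and COL1A2 and TWIST1 at or below 0.944 CPM. The 6 leukocyte markers summed to 0.387 to 2.53 CPM, the 2 endothelial ones to 0.0405 to 2.63 CPM and the 3 epithelial ones to 0.766 to 13.8 CPM, with EPCAM up to 12.7 CPM in a library labelled KO. In bulk RNA, fewer expressing cells and less RNA per cell cannot be told apart.

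The upstream sequences are shown first, as a property of these genes that was not measured in the libraries. The members were named as interferon-inducible genes, and the ISRE is known from promoters of such genes. The motif counts below are therefore not independent of the choice of members. The count table uses GRCh38, and the sequences are RefSeq's for GRCh38.p14. RefSeq windows of 300 bases, from 250 bases before to 50 after the start site, were found for 8 of 9 members. They were searched on both strands for the core of the ISRE (GAAA, any 2 bases, GAAA) and for the GAS element (TTC, any 3 bases, GAA). An ISRE core was present for 6 of the 8 members and in 3.57% of all 35116 windows, and a GAS element for 4 of the 8 members and in 7.66% of all windows. Among 31 other interferon-stimulated genes with a window, 21 held an ISRE core and 8 a GAS element, against 4.38% and 9.38% of all 27305 genes. A match of letters is a description and not a binding site. The stretches below run from 170 bases before the start site, are written 5′ to 3′ on the strand of the gene, leave out bases that the table counts as exon, and have ISRE cores and GAS elements in capitals.

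The IFI44 and IFI44L stretches (chr1:78649619-78649788 and chr1:78620278-78620447, both plus strand) are shown as those of the paralog pair whose RNA behaved differently. IFI44 has 1 ISRE core, on the opposite strand, 18 to 9 bases before its first start site. IFI44L has 2 ISRE cores, from -164 and from -73. The longest run of bases that the 2 stretches share is 13 bases, and within IFI44L a run of 66 bases occurs again 91 bases further on, each copy with 1 ISRE core.
IFI44: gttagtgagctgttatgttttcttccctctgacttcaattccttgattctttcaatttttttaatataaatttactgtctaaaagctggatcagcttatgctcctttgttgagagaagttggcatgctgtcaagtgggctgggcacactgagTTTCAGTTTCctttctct
IFI44L: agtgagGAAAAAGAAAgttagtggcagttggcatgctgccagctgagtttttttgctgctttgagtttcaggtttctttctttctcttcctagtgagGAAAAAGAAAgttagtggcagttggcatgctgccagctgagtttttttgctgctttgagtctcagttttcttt

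The IFI6 stretch (chr1:27672193-27672362, minus strand) holds 3 ISRE cores, the most of any member, from -156, -115 and -93, and a run of 26 bases in it occurs again 41 bases further on. The IFI27 stretch (chr14:94110566-94110677, plus strand) holds 2 ISRE cores on opposite strands with a GAS element that overlaps both, so that all 3 form 1 run of capitals. The start site used for IFI27, at 94110736, lies inside the gene as counted, which begins at 94105894. IFI27 and IFI6 share a run of 12 bases in these stretches.
IFI6: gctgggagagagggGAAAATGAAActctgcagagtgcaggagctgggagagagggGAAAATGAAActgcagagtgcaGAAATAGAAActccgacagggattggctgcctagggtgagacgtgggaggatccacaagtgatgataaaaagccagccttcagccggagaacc
IFI27: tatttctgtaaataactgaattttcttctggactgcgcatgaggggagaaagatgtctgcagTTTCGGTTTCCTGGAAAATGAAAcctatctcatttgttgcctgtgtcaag

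The IFI35 stretch (chr17:43006614-43006783, plus strand) holds a GAS element from -22 and no ISRE core. The NMI stretch (chr2:151289669-151289838, minus strand) holds an ISRE core on the opposite strand from -163, and a GAS element lies from 19 to 27 bases inside its transcribed part, which is not printed. In the EPSTI1 stretch (chr13:42992242-42992411, minus strand) a GAS element from -56 overlaps an ISRE core from -50. The 3 CMPK2 windows held neither motif, which says only that these letters are not in them.
IFI35: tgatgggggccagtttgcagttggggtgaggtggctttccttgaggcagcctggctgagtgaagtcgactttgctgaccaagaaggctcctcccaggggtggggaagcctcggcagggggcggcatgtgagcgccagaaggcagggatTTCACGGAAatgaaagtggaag
NMI: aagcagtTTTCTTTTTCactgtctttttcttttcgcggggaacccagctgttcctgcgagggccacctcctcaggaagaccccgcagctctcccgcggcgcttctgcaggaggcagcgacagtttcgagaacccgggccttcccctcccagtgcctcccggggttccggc
EPSTI1: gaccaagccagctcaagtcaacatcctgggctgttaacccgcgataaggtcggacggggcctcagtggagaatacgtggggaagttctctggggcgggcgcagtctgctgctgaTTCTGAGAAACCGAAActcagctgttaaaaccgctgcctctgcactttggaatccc

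With IFNγ, 6 of the 8 members tested rose in the WT clones (edgeR's quasi-likelihood test, Benjamini-Hochberg adjusted p under 0.01 and more than 2-fold), where 2.48% of the 19522 genes tested rose and 3% changed in either direction. In the libraries labelled KO 6 of 8 members rose as well, where 1.7% of 19385 genes tested rose and 1.96% changed in either direction. In both these were IFI6, IFI27, IFI35, IFI44L, NMI and CMPK2. The median log2 fold change of the 8 members was 2.99 in the WT clones and 3.03 in the libraries labelled KO, beside -0.03 over all genes tested in each. IFI44, which varied widely among untreated clones, and LY6E, which was high throughout, passed in neither. Every treated library lay above every untreated one for 6 of 9 members in the WT clones, as for 6.68% of genes tested (11.1% in either direction). In the libraries labelled KO this held for 7 of 9 members, LY6E being the addition, as for 6.07% of genes tested (9.55% in either direction). Leaving out KO replicates 4 and 5, so with 3 against 3 libraries, left 3 members called in the libraries labelled KO (IFI6, NMI and CMPK2). Of all 19633 genes tested 22 were called then.

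**Figure D1:**
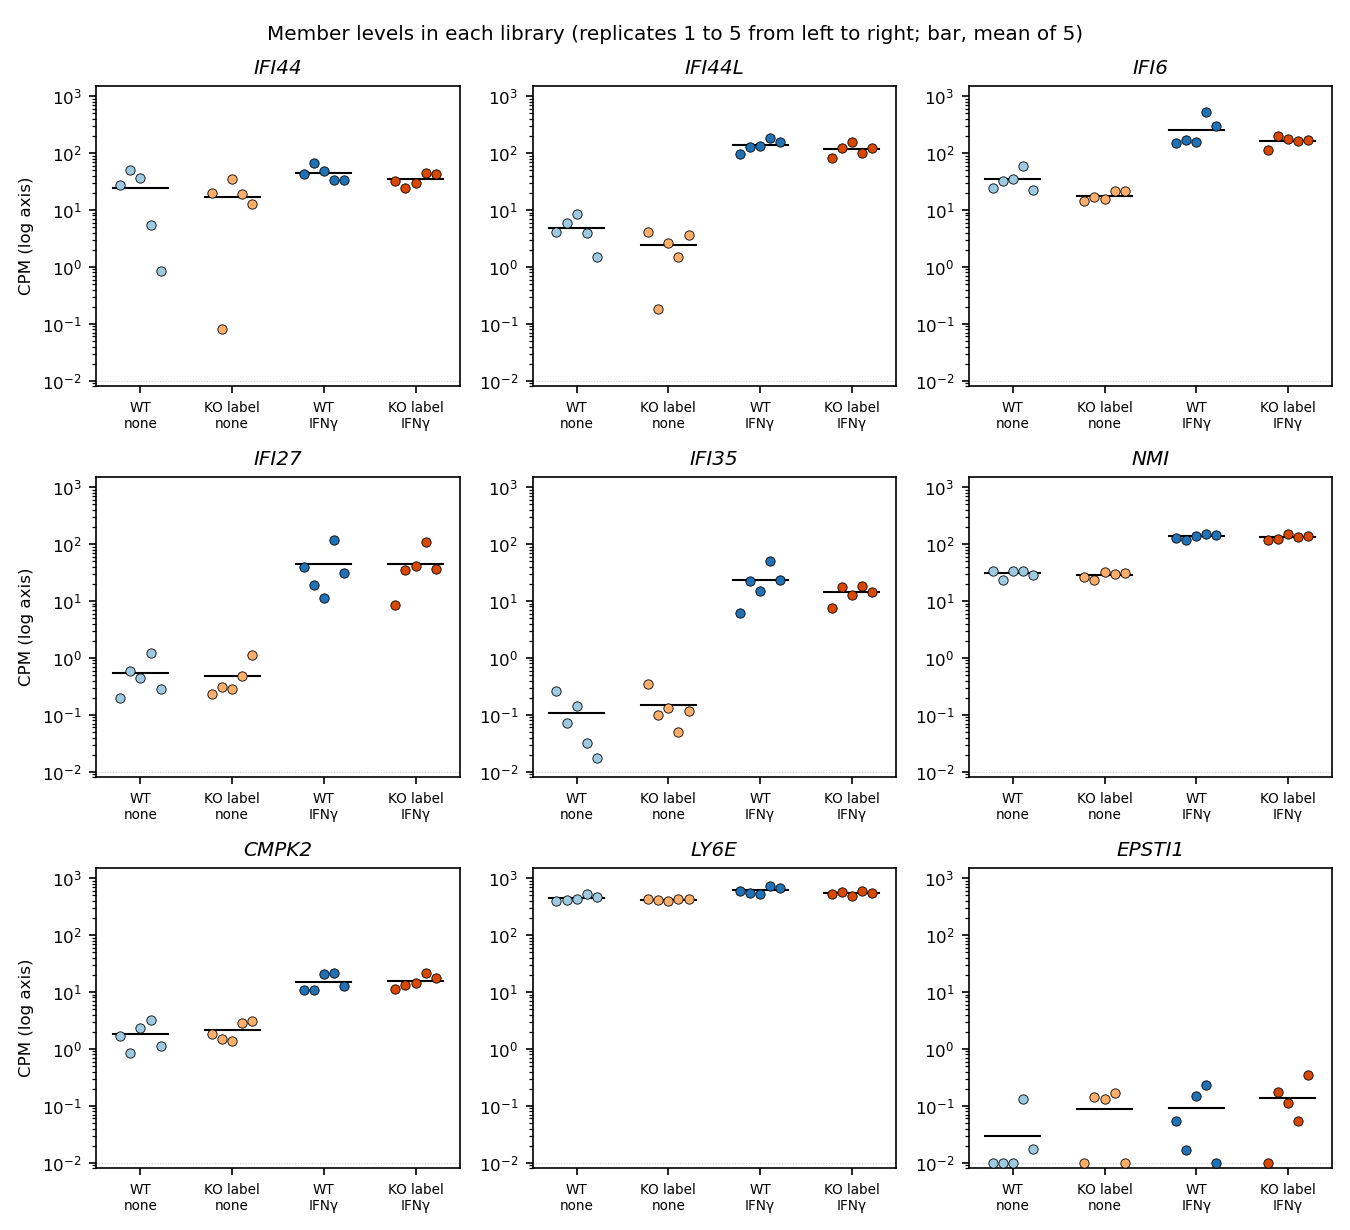
CPM of each member in each of the 20 libraries on a log axis, with replicates 1 to 5 of a group from left to right and a bar at the mean of 5. Libraries with 0 counts are drawn at 0.01 CPM, which occurs only for EPSTI1. Treated libraries lie above all untreated libraries of their label for IFI6, IFI27, IFI35, IFI44L, NMI and CMPK2, and IFI44 spreads from 0.0810 to 50.6 CPM without IFNγ.

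IFI44 (chr1:78649789-78664078, plus strand) differed more between untreated clones than any other member. In the untreated WT clones it had 27.4, 50.6, 36.5, 5.47 and 0.832 CPM in replicates 1 to 5, and in the untreated libraries labelled KO it had 19.7, 0.0810, 34.9, 18.8 and 12.5 CPM. KO replicate 2, with 4 counts, lay far below the others of its label. WT replicate 5 was the lowest WT clone, and WT replicate 4 lay between it and the other WT clones. With IFNγ it had 42.7, 65.5, 47.8, 33.4 and 33.1 CPM in the WT clones and 31.99, 23.9, 30.0, 44.7 and 42.1 CPM in the libraries labelled KO. The treated libraries of a label thus lay within 1.98-fold and 1.87-fold of each other, whereas the untreated ones spanned 60.9-fold and 432-fold, and treated and untreated libraries overlapped.

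The log2 fold change of IFI44 with IFNγ was 0.90 in the WT clones (SE 0.74, edgeR adjusted p = 0.508) and 1.00 in the libraries labelled KO (SE 0.79, edgeR adjusted p = 0.5005). The mean of log2 CPM, which gives low clones more weight, was higher with IFNγ by 1.86 and 2.28, with exact two-sided permutation p of 0.111 and 0.0317. Since treated levels differed little, the fold change within a clone was by arithmetic largest where the untreated level was lowest. It was 39.8-fold in WT replicate 5, 6.11-fold in WT replicate 4 and 295-fold in KO replicate 2. In WT replicates 1, 2 and 3 it was 1.56-fold, 1.29-fold and 1.31-fold. In KO replicate 3 the treated value was 0.859 of the untreated value, the only pair of libraries with a fall. Without KO replicate 2 the log2 fold change in the libraries labelled KO was 0.79 (SE 0.29, edgeR adjusted p = 0.118).

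IFI44L (chr1:78620448-78646145, plus strand) ends 3643 bases before IFI44 starts and rose in every clone. It had 4.04, 5.84, 8.35, 3.93 and 1.47 CPM in the untreated WT clones and 4.09, 0.182, 2.60, 1.501 and 3.64 CPM in the untreated libraries labelled KO. After treatment it had 94.8, 129, 132, 182 and 155 CPM in the WT clones and 81.8, 122, 156, 101 and 121 CPM in the libraries labelled KO. Every treated library lay above every untreated one, and WT replicate 5 and KO replicate 2 were again the lowest untreated libraries of their label. After treatment these clones were no longer the lowest, since WT replicate 1 and KO replicate 1 were. Its log2 fold change was 4.89 in the WT clones (SE 0.41, edgeR adjusted p = 2.39e-05) and 5.59 in the libraries labelled KO (SE 0.62, edgeR adjusted p = 3.61e-04). The latter call was lost without KO replicates 4 and 5 (5.70, SE 0.99, edgeR adjusted p = 0.0954).

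**Figure D2:**
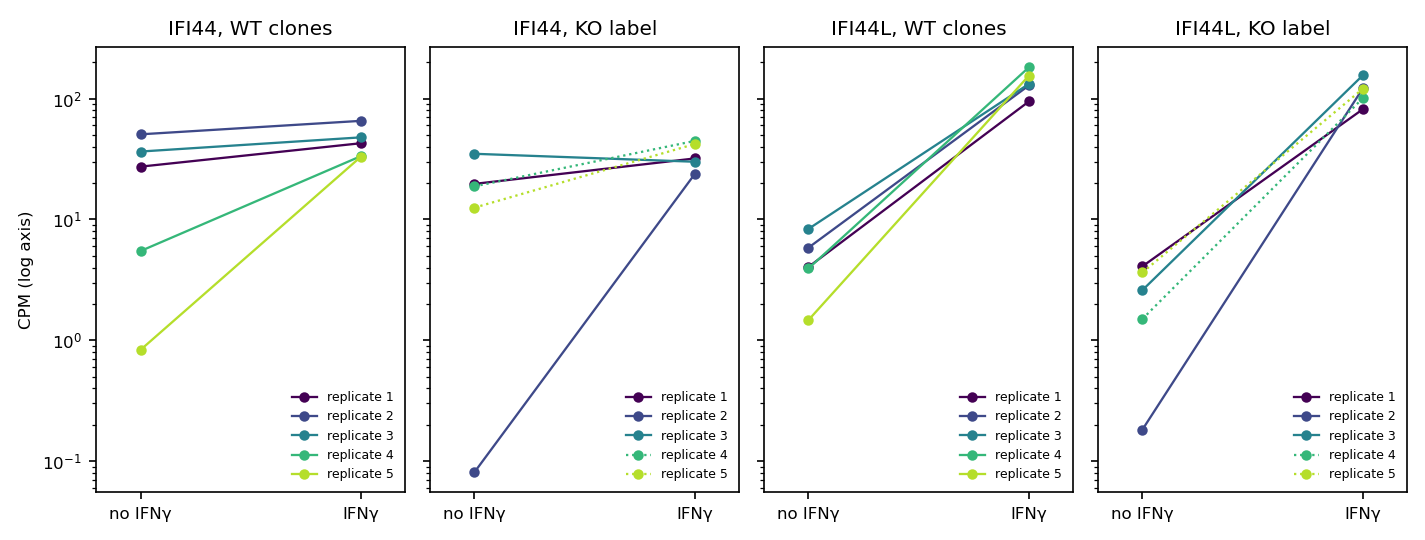
CPM of IFI44 and IFI44L on a log axis in each clone without and with IFNγ, with a line for each replicate number, dotted for KO replicates 4 and 5 whose libraries did not pair by their labels. IFI44 runs from 0.0810 to 50.6 CPM without IFNγ and from 23.9 to 65.5 CPM with it, and IFI44L rises in all 10 clones.

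The spread between clones was also set against that of all genes. The SD of log2 CPM between clones of a label was 3.01 for IFI44 without IFNγ, larger than for 99.6% of the 15053 genes with a mean of at least 1 CPM, and 0.39 with IFNγ, larger than for 59.6% of 15027 such genes. For IFI44L it was 1.43 without and 0.35 with IFNγ, larger than for 97.0% and 51.7% of genes. Without KO replicate 2 the untreated SD was 1.90 for IFI44 and 0.82 for IFI44L, still larger than for 98.8% and 92.8% of genes. NMI and LY6E were at the other end, with SDs of 0.21 and 0.13 without IFNγ and 0.13 and 0.16 with it. The median SD over genes was 0.31 without and 0.34 with IFNγ. Other interferon-stimulated genes were not ranked in this way. Among them BST2 ran from 0.0810 to 88.6 CPM in the untreated libraries labelled KO and from 121 to 290 CPM in the treated ones. A wide untreated range was thus not limited to the members.

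**Figure D3:**
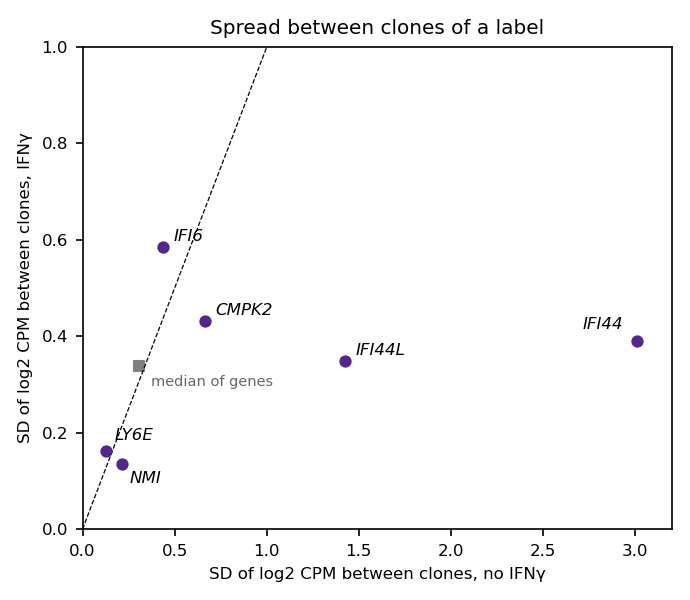
SD of log2 CPM between clones of a label, pooled over both labels, without IFNγ (horizontal axis, 0 to 3.2) and with it (vertical axis, 0 to 1), for the 6 members with a mean of at least 1 CPM in both states. The dashed line marks equal spread and the grey square the median of all genes. IFI44 lies at 3.01 and 0.39 and IFI44L at 1.43 and 0.35, both far to the right of the line, while IFI6 lies at 0.44 and 0.58.

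Other interferon-stimulated genes were also examined in the 2 clones with the least IFI44 without IFNγ. Over 30 such genes of at least 1 CPM, KO replicate 2 was the lowest of its 5 untreated libraries for 27 genes, against 25.1% of all 15053 genes of that level, and its median was 2.25 log2 CPM against 3.74 to 4.20 in the other 4. WT replicate 5 was the lowest untreated WT library for 19 of the 30 genes, against 21.4% of all genes, although its median of 3.89 lay within the range of 3.87 to 4.37 of the other 4. With IFNγ KO replicate 2 was lowest for 19 and WT replicate 5 for 13 of 36 genes, against 23.8% of all genes for each. Their treated medians were 5.43 log2 CPM in KO replicate 2, against 5.95 to 6.35 in the other libraries labelled KO, and 6.17 in WT replicate 5, against 6.13 to 6.45. The 9 interferon genes examined, with only IFNA1 and IFNA2 of the IFNA genes among them, were at or near 0. They summed to at most 0.461 CPM in any library, and their part in these levels was not tested. Other interferon genes were not examined.

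IFI6 (chr1:27666064-27672192, minus strand) restrains programmed cell death and replication of some viruses. It had 23.9, 31.9, 35.2, 58.8 and 22.3 CPM in the untreated WT clones and 14.6, 16.7, 15.3, 21.6 and 21.3 CPM in the untreated libraries labelled KO. In treated cells it had 152, 170, 154, 514 and 302 CPM in the WT clones and 115, 196, 179, 160 and 166 CPM in the libraries labelled KO. WT replicate 4 was the highest WT library in both states. The log2 fold change with IFNγ was 2.93 in the WT clones (SE 0.41, edgeR adjusted p = 9.75e-04) and 3.19 in the libraries labelled KO (SE 0.18, edgeR adjusted p = 2.19e-06).

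Every untreated WT clone had more IFI6 than every untreated library labelled KO, although the gap between the lowest WT and the highest KO value was small, 22.3 against 21.6 CPM. The means were 34.4 ± 14.6 CPM and 17.9 ± 3.32 CPM (SD, n = 5 each), and the exact two-sided permutation p was 0.00794, the smallest that 5 against 5 libraries can give. Groups that did not overlap with WT higher were found for 0.625% of the 19505 genes tested. Its log2 fold change of WT over the KO label was 0.93 (SE 0.25, unadjusted p = 0.00330), and after adjustment over all genes it did not pass (edgeR adjusted p = 0.873). Without WT replicate 4 it was 0.65 (edgeR adjusted p = 0.995). Without KO replicate 3 it was 0.88 (edgeR adjusted p = 0.999), and without KO replicates 4 and 5 it was 1.14 (edgeR adjusted p = 0.9997). With IFNγ the difference was 0.66 (SE 0.33, edgeR adjusted p = 0.996) and the groups overlapped.

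IFI27 (chr14:94105894-94116690, plus strand), the relative of IFI6, went from a trace to a moderate level. It had 0.200, 0.600, 0.447, 1.22 and 0.283 CPM in the untreated WT clones and 0.232, 0.304, 0.280, 0.472 and 1.11 CPM in the untreated libraries labelled KO. With IFNγ it had 39.2, 19.3, 11.1, 118 and 31.1 CPM in the WT clones and 8.50, 34.3, 41.6, 107 and 36.1 CPM in the libraries labelled KO. WT replicate 4 and KO replicate 4, which are unrelated clones, were each the highest treated library of their label. Treated libraries of a label spanned 10.6-fold and 12.5-fold. The log2 fold change was 6.32 in the WT clones (SE 0.77, edgeR adjusted p = 3.90e-04) and 6.57 in the libraries labelled KO (SE 0.73, edgeR adjusted p = 3.83e-04). Without KO replicates 4 and 5 the latter was 6.68 (edgeR adjusted p = 0.0196), past the cut-off for p. Its neighbours and relatives IFI27L1 and IFI27L2 had log2 fold changes between -0.13 and 0.22 and were not called.

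IFI35 (chr17:43006784-43014456, plus strand) had the largest fold change of the members in the WT clones by edgeR. With DESeq2's shrinkage its log2 fold change there was 1.86 and that of IFI27 1.82, below IFI44L at 3.49, CMPK2 at 2.18, NMI at 2.05 and IFI6 at 2.04. Without IFNγ it had 16, 4, 7, 2 and 1 counts in the WT clones, or 0.266, 0.0706, 0.142, 0.0326 and 0.0177 CPM. The untreated libraries labelled KO had 18, 5, 8, 3 and 6 counts, or 0.347, 0.101, 0.132, 0.0506 and 0.119 CPM. After treatment it had 6.16, 22.8, 14.8, 49.6 and 23.6 CPM in the WT clones and 7.63, 17.6, 12.9, 18.4 and 14.3 CPM in the libraries labelled KO. WT replicate 1 and KO replicate 1, which are unrelated clones, were each the highest untreated and the lowest treated library of their label. Its log2 fold change was 7.77 in the WT clones (SE 0.76, edgeR adjusted p = 7.53e-05) and 6.55 in the libraries labelled KO (SE 0.50, edgeR adjusted p = 1.99e-05), and its size rests on few untreated counts. Without KO replicates 4 and 5 the latter was 6.02 (edgeR adjusted p = 0.0196). VAT1, which lies 150 bases away on the other strand, had a log2 fold change of -0.50 in the WT clones and -0.58 in the libraries labelled KO and was not called.

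NMI (chr2:151270470-151289668, minus strand), the binding partner of IFI35, was the most even of the members that rose. It had 34.1, 23.8, 34.0, 33.5 and 28.7 CPM in the untreated WT clones and 26.2, 23.0, 32.1, 30.0 and 30.4 CPM in the untreated libraries labelled KO. In treated cells it had 129, 118, 138, 150 and 146 CPM in the WT clones and 120, 123, 150, 134 and 136 CPM in the libraries labelled KO. Treated libraries of a label lay within 1.26-fold and 1.25-fold of each other. The log2 fold change was 2.16 in the WT clones (SE 0.13, edgeR adjusted p = 2.11e-06) and 2.22 in the libraries labelled KO (SE 0.12, edgeR adjusted p = 1.73e-06).

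CMPK2 (chr2:6840553-6866635, minus strand) makes pyrimidine nucleotides in mitochondria. It had 1.68, 0.847, 2.32, 3.23 and 1.12 CPM in the untreated WT clones and 1.83, 1.498, 1.35, 2.83 and 3.13 CPM in the untreated libraries labelled KO. With IFNγ it had 10.7, 10.6, 20.4, 21.3 and 12.5 CPM in the WT clones and 11.5, 13.2, 14.1, 21.2 and 17.8 CPM in the libraries labelled KO. Treated and untreated libraries did not overlap in either label. Its log2 fold change was 3.05 in the WT clones (SE 0.39, edgeR adjusted p = 5.42e-04) and 2.87 in the libraries labelled KO (SE 0.29, edgeR adjusted p = 2.10e-04). RSAD2, the antiviral gene on the opposite strand with 23 exonic bases in common, rose as well, with log2 fold changes of 4.81 (SE 0.86, edgeR adjusted p = 0.00440) and 5.24 (SE 0.91, edgeR adjusted p = 0.00602). Whether the counting used strand is not stated, so reads in the shared bases cannot be told apart.

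LY6E (chr8:143018529-143022409, plus strand) was the member with the highest level in every group. It had 398, 405, 422, 528 and 472 CPM in the untreated WT clones and 420, 410, 389, 436 and 427 CPM in the untreated libraries labelled KO. After treatment it had 597, 536, 524, 730 and 668 CPM in the WT clones and 521, 572, 491, 586 and 548 CPM in the libraries labelled KO. All 10 clones had more with IFNγ, but the WT groups overlapped, since untreated WT replicate 4 lay above treated WT replicate 3. The log2 fold change was 0.47 in the WT clones (SE 0.13, edgeR adjusted p = 0.0386) and 0.38 in the libraries labelled KO (SE 0.09, edgeR adjusted p = 0.0244), below the 2-fold cut-off. The exact two-sided permutation p was 0.0159 and 0.00794 (n = 5 against 5). Neither test pairs the libraries of a clone. With the clone as a block the log2 fold change in the WT clones was 0.47 (SE 0.05, edgeR adjusted p = 1.44e-05). Over 12 alternative fits by edgeR or DESeq2 the adjusted p there ran from 1.44e-05 to 0.148, and the change stayed below 2-fold.

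EPSTI1 (chr13:42886388-42992241, minus strand) was barely detected. It had 0, 0, 0, 8 and 1 counts in the untreated WT clones and 0, 7, 8, 10 and 0 counts in the untreated libraries labelled KO. In treated cells it had 3, 1, 11, 14 and 0 counts in the WT clones and 0, 12, 6, 3 and 19 counts in the libraries labelled KO. The highest value was 0.350 CPM, all groups overlapped, and a change was not detectable at this depth (exact two-sided permutation p = 0.254 in the WT clones and 0.619 in the libraries labelled KO).

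The WT clones and the libraries labelled KO were then compared with each other. With IFNγ, 0 of 8 members passed, where 0.0155% of 19383 genes passed, and 0 had an unadjusted edgeR p under 0.05. Without IFNγ, 0 of the 7 members tested passed, where 0.0154% of 19505 genes passed, and 1 of them, IFI6, had an unadjusted edgeR p under 0.05. DESeq2 called 0 members in either comparison. The groups did not overlap for 0 of 9 members with IFNγ, as for 0.805% of genes tested (0.506% with WT higher), and for 1 of 9 without it, as for 1% of genes tested (0.625% with WT higher). The log2 fold changes of WT over the KO label with IFNγ ranged from -0.06 for IFI27 to 0.72 for IFI35 (SE 0.44, edgeR adjusted p = 0.996), with a median of 0.21 beside -0.02 over all genes tested. The values of NMI were the closest, at 0.04 (SE 0.11), and those of IFI27 the least certain (SE 0.67). Without IFNγ they ranged from -0.22 for CMPK2 (SE 0.40) to 0.96 for IFI44L (SE 0.64), with a median of 0.19 beside 0.00 over all genes, and IFI35 and EPSTI1 did not pass the filter there.

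With KO replicates 4 and 5 left out, every treated WT clone had more IFI44 than the 3 remaining libraries labelled KO, by a log2 fold change of 0.65 (SE 0.24, unadjusted p = 0.0222, edgeR adjusted p = 0.997). The exact two-sided permutation p was 0.0357 (n = 5 against 3). The treated libraries left out were the highest of the KO label for IFI44, at 44.7 and 42.1 CPM. Leaving them out therefore removed the overlap, and pairing does not enter this comparison of groups. With all 5 the difference was 0.36 (SE 0.23, edgeR adjusted p = 0.996) and the groups overlapped.

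**Figure D4:**
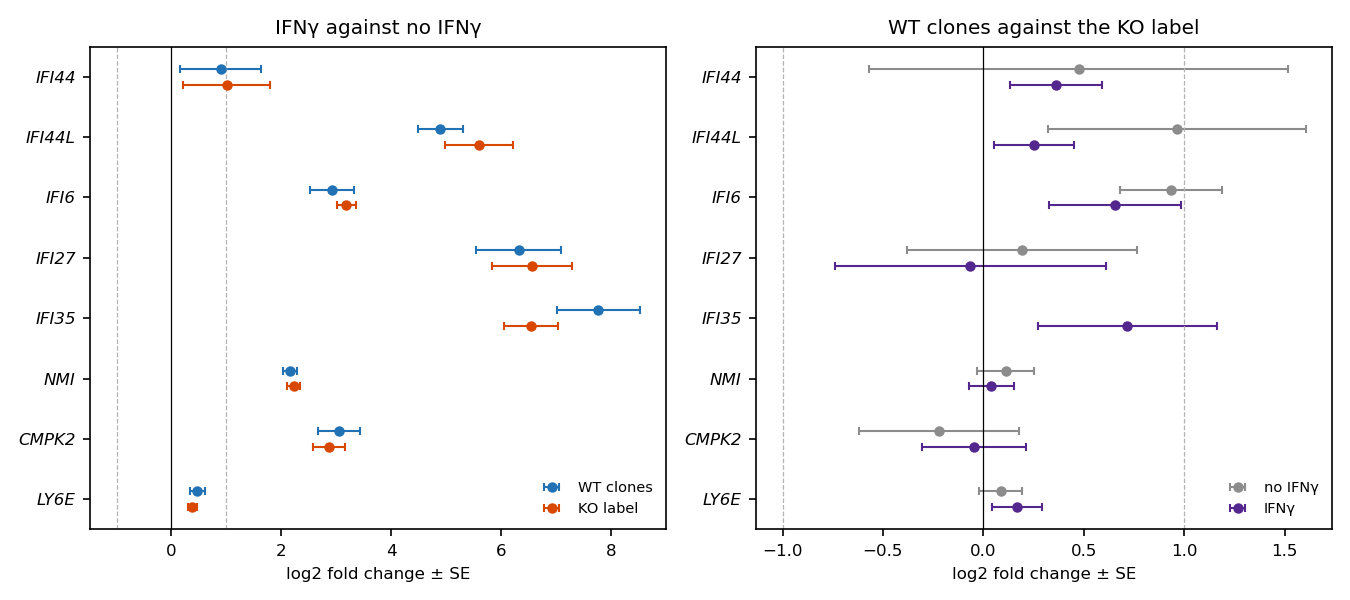
Log2 fold changes with their standard errors from edgeR for 8 members, on the left for IFNγ against no IFNγ in the WT clones (blue) and the libraries labelled KO (orange), and on the right for WT clones against the KO label without (grey) and with IFNγ (purple). Dashed lines mark 2-fold, each value rests on 5 against 5 libraries, and IFI35 was not tested without IFNγ. On the left 6 members lie beyond 2 log2 units, IFI44 at 0.90 and 1.00 and LY6E at 0.47 and 0.38, and on the right all values lie between -0.22 and 0.96.

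The difference between the responses of the WT clones and of the libraries labelled KO was fitted over all 20 libraries. No member passed (0 of 8 by edgeR, 0 by DESeq2, and 0 with an unadjusted edgeR p under 0.05), where 0% of the 21052 genes tested passed. The differences ranged from -0.72 for IFI44L (SE 0.67) to 1.21 for IFI35 (SE 0.84), so that a difference of 2-fold lay within 2 SE of the value for every member tested except NMI and LY6E. For NMI the difference was -0.08 (SE 0.17) and for LY6E 0.07 (SE 0.15). Clone by clone, the log2 response of NMI was 2.15 ± 0.18 in the WT clones and 2.23 ± 0.11 in the libraries labelled KO (SD, n = 5 each, exact two-sided permutation p = 0.437), and that of CMPK2 was 3.12 ± 0.43 and 2.91 ± 0.35 (exact two-sided permutation p = 0.405). Over all 9 members the exact p ranged from 0.246 to 0.762, and without KO replicates 4 and 5 from 0.214 to 0.732.

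Levels of different genes were compared per length, as FPKM from the counts and the exon length in the table. In the untreated WT clones LY6E came first with 394 ± 48.3 FPKM, then IFI6 with 41.2 ± 17.5 FPKM and NMI with 9.66 ± 1.42 FPKM (SD, n = 5 each), and these 3 did not overlap with each other. IFI44 followed with 7.73 ± 6.71 FPKM, overlapping both NMI and IFI44L at 0.807 ± 0.436 FPKM. IFI44L, IFI27 and CMPK2 overlapped as neighbours in the order, while IFI35 and then EPSTI1 lay below them without overlap. The untreated libraries labelled KO had the same first 4 genes in the same order.

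With IFNγ the order in the WT clones was LY6E at 540 ± 77.7 FPKM, IFI6 at 309 ± 187 FPKM, IFI27 at 49.2 ± 48.4 FPKM and NMI at 42.7 ± 3.99 FPKM (SD, n = 5 each). LY6E and IFI6 now overlapped, as did IFI27 and NMI. IFI44L at 23.7 ± 5.53 FPKM, IFI35 at 17.1 ± 11.9 FPKM and IFI44 at 14.3 ± 4.25 FPKM overlapped as neighbours, while CMPK2 at 3.57 ± 1.26 FPKM did not overlap with IFI44, its neighbour in the order, but did with IFI35, which fell to 4.51 FPKM in 1 library against a highest CMPK2 value of 5.03 FPKM. IFI27 thus moved from the sixth to the third place and IFI44 from the fourth to the seventh. In the libraries labelled KO the first 5 genes with IFNγ were the same in the same order, from LY6E at 481 ± 33.9 FPKM to IFI44L at 19.9 ± 4.72 FPKM.

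Across the 10 treated libraries, deviations of log2 CPM from the group mean were correlated between members as a description, over 10 points that share the treatment and the scaling. The highest values were Pearson's r of 0.82 for IFI6 with IFI35, 0.80 for IFI6 with LY6E and 0.78 for IFI6 with IFI44L. WT replicate 4 was the highest treated WT library for IFI6, IFI27, IFI35, IFI44L, NMI, CMPK2 and LY6E. IFI44 did not follow the other members, with r from -0.57 with IFI6 to 0.08 with CMPK2, and -0.37 with its paralog IFI44L. The largest of 15023 values of r over 10 points are high by selection alone, so the genes named next are a description and shared regulation was not tested. Among 15023 genes, the most similar to IFI27 were LOC102723546 (r = 0.96), the MHC class II helper gene HLA-DMA (r = 0.92) and the antiviral gene IFITM3 (r = 0.91). Those most similar to IFI44 were IMP3, ZSCAN23 and LOC105372948, with r of 0.95, 0.95 and 0.94. For IFI6 they were TAF8, TDG and LY6G5B (0.95, 0.93 and 0.92), and for NMI OSMR, MTF1 and SMIM15 (0.94, 0.94 and 0.93). For IFI35 they were SLCO4C1, LOC124901974 and LOC124902505 (0.93, 0.91 and 0.91), and for IFI44L DMAC2L, NAPB and HOMER1 (0.93, 0.92 and 0.92). For CMPK2 they were P3H2, C2 and PTN (0.90, 0.89 and 0.89), and for LY6E MKNK2, OTUD1 and C21orf91 (0.97, 0.96 and 0.95). No member was among the 3 genes most similar to another member.

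The other genes of the pathway moved as follows. Of 16 signalling genes, 7 rose and 0 fell with IFNγ in the WT clones, and 7 rose and 0 fell in the libraries labelled KO, with medians of 0.37 and 0.49 log2 units. IRF1, a factor that binds ISRE elements, had log2 fold changes of 4.96 (SE 0.13) and 4.72 (SE 0.33), and IRF9 of 2.28 (SE 0.17) and 2.27 (SE 0.17). SOCS1, which inhibits JAK kinases, rose by 2.20 (SE 0.31) and 2.10 (SE 0.26). Between WT clones and the KO label 0 of 16 passed without and 0 of 16 with IFNγ.

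Of 36 other interferon-stimulated genes tested, 30 rose in the WT clones and 26 in the libraries labelled KO, none fell, and the medians were 2.65 and 2.60 log2 units, close to those of the members. IFITM1, a membrane protein that limits virus entry, rose by 8.15 (SE 0.75) and 7.64 (SE 0.53) and OAS2, an enzyme activated by double-stranded RNA, by 6.67 (SE 0.65) and 7.76 (SE 0.69). XAF1, a gene that promotes cell death, had at most 4 counts in any untreated library and 21.8 to 73.1 CPM in the treated ones. BST2, which tethers budding virus, rose by 6.36 (SE 0.62) in the WT clones. With the KO label its log2 fold change was 3.08 (SE 1.196, edgeR adjusted p = 0.147), and untreated libraries there ranged from 0.0810 to 88.6 CPM. Between the WT clones and the KO label, 0 of 36 passed with IFNγ and 0 of 34 without it.

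Most of the relatives and neighbours of the members that were tested were not called. Of 8 relatives, among them IFI27L1, IFI27L2, CMPK1 and other genes of the LY6 family, 5 were tested in the WT clones and 6 in the libraries labelled KO, and 0 were called in either, with log2 fold changes from -0.74 to 0.22. Of 21 nearest or overlapping genes 14 were tested in each label, and 2 rose in each. Of all genes tested, 2.48% rose in the WT clones and 1.7% in the libraries labelled KO. The 2 were RSAD2 next to CMPK2 and IFI44L next to IFI44. IFI44 and IFI44L are members themselves and are counted here as neighbours of each other. NRIR, a non-coding gene 88 bases from CMPK2, had log2 fold changes of 2.97 (SE 0.75, edgeR adjusted p = 0.0265) and 2.81 (SE 0.63, edgeR adjusted p = 0.0203) and was not called.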

How the data were processed

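The deposited table holds the authors' raw counts for 43366 RefSeq genes in 20 libraries, made by aligning stranded mRNA reads to GRCh38 with STAR 2.7.9a, keeping unique mappers and counting with featureCounts 2.4.0, without normalization. The deposited table also gives a length per gene, the bases covered by its exons, used for FPKM. The strand setting of the counting is not given in the sources used here. The submitters' notes and methods name DESeq2, which was run as an alternative, since the main test here was edgeR's.

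Groups follow the labels, and all 20 columns were matched. For a comparison of 5 with 5 libraries only those 10 entered the fit, in R 4.3.3 with edgeR 4.0.16 (TMM, filterByExpr, robust quasi-likelihood test), and the difference between responses on all 20. A gene was called at a Benjamini-Hochberg adjusted p under 0.01 over all genes tested and a change over 2-fold. SE is the log2 fold change divided by the root of F. Log2 CPM used a prior count of 1. Exact two-sided permutation tests, 45 in all, were made on log2 CPM, and their p is not adjusted. Depth, 46652288 counts or more per library, limits genes of few counts, and 3 counts were taken as the floor. Alternatives were DESeq2 1.42.0, other scalings, no filter, a fit on all 20 libraries, the block and left-out replicates. The scripts were tested on simulated data.

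The labels name the clone of each library, so treated and untreated libraries of a number were taken as paired in an alternative with the clone as a block. Deviations from group means over 15115 genes correlated at 0.79 to 0.89 for WT clones and at 0.78, 0.85, 0.70, -0.02 and 0.05 for KO replicates 1 to 5. Between WT and KO clones of a number they ranged from -0.27 to 0.24, so these are not pairs. In comparisons between the labels the block alternative used the replicate number all the same, and it joins unrelated clones there.

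The members, the gene lists and the tests were chosen with earlier results of these data known. The genes named are the members, ZBTB48 and MTFP1, up to 4 genes of each list by the size of the WT response, the nearest neighbours of members, and for each member the 3 genes most similar over the 10 treated libraries. Some genes of these lists are not reported here by name.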

Additional observations from a re-analysis of the deposited data

Results flagged for a closer look

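Of 36 groups of 5 libraries, 1 held a library set apart by Dixon's test at the 95% level on log2 CPM. This was IFI44 in the untreated library labelled KO replicate 2, where its gap to the next library was 0.826 of the range of the group, above the critical value of 0.71. It had 4 counts there (0.0810 CPM), against 12.5 to 34.9 CPM in the other 4. Chance sets apart about 1 in 20 groups, or 1.8 of 36. No difference between the responses of the labels passed a test for any member.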

How the results depend on the processing

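The counts of members called were equal under 77 of 79 alternatives, leaving out each replicate included (6 and 6 for the responses, 0 for the other comparisons). Both exceptions concern the response of the libraries labelled KO with KO replicates 4 and 5 left out, where 3 members were called without the replicate block. With 3 against 3 libraries 0 members had an exact permutation p under 0.05, which such a design cannot reach. With 5 against 3 treated libraries 1 did (IFI44), where the libraries left out were the highest of the KO label. With the clone as a replicate block and these libraries left out, chosen after seeing the data, 5 members were called, and IFI44L was not (5.96, edgeR adjusted p = 0.04). The replicate block changed no other call of a member, and called 1414 genes in the WT clones and 721 in the libraries labelled KO against 585 and 379.

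The sign turned for values called in no fit. For IFI27 between WT and KO labels with IFNγ it was 0.65 with KO replicates 4 and 5 left out and -0.86 to 0.54 leaving out 1 replicate, and without IFNγ -0.33 to 0.76. For CMPK2 it was 0.24 with IFNγ and 0.23 without, with KO replicates 4 and 5 left out, and -0.20 to 0.10 with IFNγ leaving out 1 replicate. For IFI44 without IFNγ it was -0.22 with the replicate number as a block, which between the labels joins unrelated clones. The difference between responses of IFI44 was 0.0615 under the replicate block, 0.25 with KO replicates 4 and 5 left out, 0.11 with both, and -0.60 to 0.18 leaving out 1 replicate. That of CMPK2 was -0.0002 with KO replicates 4 and 5 left out, and that of IFI27 -0.89 to 0.33 leaving out 1 replicate. The cause was not tested.

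Calls over all genes moved more. DESeq2 without shrinkage called 976 and 823 genes in the responses, DESeq2 with shrinkage 613 and the fit on all 20 libraries 642 in the libraries labelled KO, and without KO replicates 4 and 5 22 were called. Leaving out 1 replicate gave 318 to 457 in the WT clones (lowest without replicates 1 and 2, 355 and 318) and 131 to 490 in the libraries labelled KO (167, 160, 131 and 142 without replicates 1, 3, 4 and 5). Between the labels with IFNγ DESeq2 called 16 genes, 6 with shrinkage, no filter 5, all 20 libraries 6 and without KO replicate 1 5, against 3. Without IFNγ they called 12, 5, 5 and 5 against 3, and the block on replicate number, which joins unrelated clones, 1. Levels per length stayed within 1 SD with library totals in all 36 cases.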
